A study of Homo sapiens with 4 samples.

Results

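Probe sets for 6 aldehyde dehydrogenases (ALDH1A3, ALDH1A1, ALDH1B1, ALDH2, ALDH3B1 and ALDH7A1), for CD44 and for PROM1 are described here across cultures of MDA-MB-231, a triple-negative human breast cancer line with mesenchymal features. Every probe set that the platform annotation gives exactly 1 gene symbol, and whose symbol is one of these 8, was taken, which gave 26 of the 41097 probe sets with 1 symbol. The groups were a stable knockdown of ZEB2 with a short hairpin RNA (shRNA), cells with the control vector pLVTH, a transient knockdown with a pool of small interfering RNAs (siRNA) against ZEB2, and a transfection control with siRNA against luciferase, which human cells do not make. Whether the stable lines are clones or mixed populations is not given in the sources used here. The siRNA cultures received 20 nM siRNA, were washed 24 hours later and were harvested after 48 hours more. RNA for labelling was 2 µg on both shRNA arrays and 100 ng on both siRNA arrays. With 1 Affymetrix U133 Plus 2 array in each group, differences inside a pair have no replicate to check them, and precision is limited throughout by the 4 arrays.

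Aldehyde dehydrogenases oxidise aldehydes to carboxylic acids with NAD or NADP. The ALDH1A enzymes turn retinaldehyde into retinoic acid, the ligand of nuclear receptors, and high aldehyde dehydrogenase activity, measured by a fluorescent substrate, is used to sort stem-like cells from breast tumours. In many breast cancer cells ALDH1A3 has been reported as a main source of that activity. CD44 is the cell surface receptor for hyaluronan, and breast cancer cells with high CD44 and low CD24 on their surface are also described as stem-like. PROM1, also called CD133, is a membrane glycoprotein used as a stem cell marker in several tissues. ZEB2, the gene knocked down, encodes a zinc-finger repressor of epithelial genes that binds E-box sequences with the core CACCTG.

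Promoter sequences of RefSeq (build GRCh38.p14), from 250 bases before to 50 after a gene start, were found for 7 of the 8 genes, with 11 starts in all. CACCTG on either strand (CAGGTG on the other) was present at 5 of these 11 starts, against 20.6% of all 35116 promoters. Most of the 5 belong to PROM1, which has several starts, so the starts are not separate genes. By gene, a match was present in 3 of the 7, namely ALDH1A1, ALDH3B1 and PROM1. The 20.6% is a share of promoters and is not a standard for that count. A match describes these letters in this window and is not evidence of a bound site. The promoters of ALDH1A3, which had the largest difference, of CD44, and of ALDH3B1 at its first listed start are shown in lower case with matches in capitals. They lie on the plus strand at chr15:100879581-100879880 (ALDH1A3), chr11:35138921-35139220 (CD44) and chr11:68008297-68008596 (ALDH3B1), and only that of ALDH3B1 among these 3 holds a match.
ALDH1A3: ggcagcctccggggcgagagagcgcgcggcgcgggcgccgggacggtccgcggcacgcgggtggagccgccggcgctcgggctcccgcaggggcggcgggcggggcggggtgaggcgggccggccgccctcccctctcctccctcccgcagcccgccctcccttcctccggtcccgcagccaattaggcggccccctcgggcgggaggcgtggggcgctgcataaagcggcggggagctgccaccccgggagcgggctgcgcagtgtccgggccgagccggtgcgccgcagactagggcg
CD44: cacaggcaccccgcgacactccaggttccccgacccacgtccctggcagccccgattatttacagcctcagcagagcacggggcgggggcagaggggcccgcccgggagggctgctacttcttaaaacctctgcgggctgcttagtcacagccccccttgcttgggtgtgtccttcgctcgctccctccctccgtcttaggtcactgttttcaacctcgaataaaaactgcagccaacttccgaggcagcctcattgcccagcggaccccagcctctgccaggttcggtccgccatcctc
ALDH3B1: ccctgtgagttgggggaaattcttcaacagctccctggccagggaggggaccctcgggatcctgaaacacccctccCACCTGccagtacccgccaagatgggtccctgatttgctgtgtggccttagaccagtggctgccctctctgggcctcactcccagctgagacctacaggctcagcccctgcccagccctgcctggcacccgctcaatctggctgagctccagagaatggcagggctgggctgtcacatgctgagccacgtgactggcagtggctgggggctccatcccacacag

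Levels are log2 values made by the authors with RMA, and differences are of log2 levels, where 1 unit is 2-fold. Levels of different probe sets are not comparable, so each is followed across arrays only. A probe set was kept when its highest value reached 4.77, the 40th percentile of all values. Of the 26 probe sets 22 were kept, and these covered 6 of the 8 genes. ZEB2 itself, measured by the brightest of its probe sets, read 3.52 in the shRNA knockdown against 6.12 in the vector control, and 3.51 in the siRNA knockdown against 6.56 in the luciferase control. Vimentin, the keratins KRT8 and KRT18, EGFR and CAV1, all known in this line, read between 10.59 and 14.12, and the progesterone receptor gene PGR stayed under 4.77 on every array. ERBB2 and ESR1 passed the filter, with 6.08 as the lowest reading. Of 8 markers of other cell types, PTPRC and ALB were under the filter level and the other 6 read between 4.86 and 7.63. The 2 shRNA arrays correlated at Pearson r = 0.986 over all probe sets and the 2 siRNA arrays at 0.995, while arrays of different methods correlated at 0.951 to 0.962.

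ALDH1A3, which makes retinoic acid from retinaldehyde, was the one gene of the 8 with a knockdown difference past 2-fold, and that difference belonged to the shRNA pair. Its kept probe set, 203180_at, read 7.23 in the shRNA knockdown against 9.53 in the vector control, and 7.10 in the siRNA knockdown against 7.14 in the luciferase control. The vector control stood alone, and the other 3 arrays lay within a narrow band. The shRNA difference was -2.30, 4.94-fold lower, and 49 of the 29214 probe sets kept had a lower one. The siRNA difference was -0.05. In RNA from whole cultures, fewer cells with ALDH1A3 and less of it per cell cannot be told apart. Between the controls the siRNA control was lower by a difference of -2.39, which is 5.23-fold. Set against the luciferase control in place of the vector control, an alternative added with the values known, ALDH1A3 in the shRNA knockdown differed by 0.08. This comparison also sets one method against the other, so which of the shRNA arrays departed cannot be told from it. The other ALDH1A3 probe set, 1558649_at, was under the filter level on every array, at 4.24 with ZEB2 shRNA against 4.55 with the vector, and 4.62 with ZEB2 siRNA against 4.55 with luciferase siRNA. The mean of both probe sets gave an shRNA difference of -1.31.

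ALDH1A1, the other enzyme of the retinaldehyde-oxidising group among the 8, stayed under the filter level. Its single probe set read 2.87 in the shRNA knockdown and 2.79 in the vector control, and 3.01 in the siRNA knockdown and 3.33 in the luciferase control. That is the range in which RMA shrinks differences, so no change in ALDH1A1 was detectable. PROM1 likewise had 1 probe set, which read 2.91 with ZEB2 shRNA against 2.73 with the vector, and 2.87 with ZEB2 siRNA against 2.77 with luciferase siRNA. These readings say that the probe sets were dim and not that the transcripts were missing.

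The mitochondrial enzymes gave different pictures. ALDH2, which oxidises the acetaldehyde formed from ethanol, read 10.17 in the shRNA knockdown against 9.33 in the vector control, and 10.08 in the siRNA knockdown against 10.30 in the luciferase control. Again the vector control stood apart from the other 3 arrays, here on the low side. ALDH2 was thus higher by 0.84 in the shRNA pair, 1.79-fold, and its siRNA difference was -0.22. The siRNA control lay above the shRNA control by 0.96. Against the luciferase control the shRNA knockdown differed by -0.13. ALDH1B1, a mitochondrial relative of ALDH2, had both probe sets lower in the shRNA pair, at -0.12 and -0.26, with siRNA differences of 0.0001 and 0.05. Its probe set 209645_s_at read 8.65 in the shRNA knockdown, 8.78 in the vector control and 8.36 on both siRNA arrays. Probe set 209646_x_at, named as one that may cross-hybridise, read 8.10 with ZEB2 shRNA against 8.36 with the vector. It read 8.70 with ZEB2 siRNA against 8.65 with luciferase siRNA. Between the controls these 2 probe sets disagreed in sign, at -0.41 and 0.29, so no direction is given for ALDH1B1 there.

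ALDH3B1, a membrane-associated enzyme that oxidises lipid-derived aldehydes, was lower in the shRNA knockdown by all 3 of its probe sets, and by less than 2-fold in each. Probe set 205640_at read 7.41 in the shRNA knockdown against 7.98 in the vector control, a difference of -0.57, and 6.85 in the siRNA knockdown against 7.06 in the luciferase control, a difference of -0.21. Probe set 211004_s_at read 7.42 with ZEB2 shRNA against 7.70 with the vector, and 7.05 with ZEB2 siRNA against 7.16 with luciferase siRNA, which gave differences of -0.28 and -0.11. The vector control was the highest of the 4 arrays for each of the 3 probe sets. The third, 1565731_at, had an shRNA difference of -0.08 and an siRNA difference of 0.29, and so went the other way after siRNA. Between the controls all 3 were lower in the siRNA control, at -0.93, -0.54 and -0.35. Against the luciferase control, the shRNA knockdown was higher for all 3, by 0.36, 0.26 and 0.27, the opposite sign to the difference from its own control.

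ALDH7A1, also called antiquitin, which acts in lysine breakdown, was higher in the shRNA knockdown by its 2 brighter probe sets. Probe set 208950_s_at read 10.34 in the shRNA knockdown against 9.54 in the vector control, and 9.76 in the siRNA knockdown against 9.72 in the luciferase control. Probe set 208951_at read 10.02 with ZEB2 shRNA against 9.41 with the vector, and 9.28 with ZEB2 siRNA against 9.34 with luciferase siRNA. Here the shRNA knockdown stood above the other 3 arrays, so the pattern differed from those of ALDH1A3 and ALDH2, and it was also 0.62 and 0.68 above the luciferase control. The shRNA differences were 0.79 and 0.61, and the siRNA differences 0.04 and -0.06. The third probe set, 213591_at, read 5.72 with ZEB2 shRNA against 5.90 with the vector, and 6.16 with ZEB2 siRNA against 6.54 with luciferase siRNA. Its differences were -0.18 (shRNA) and -0.38 (siRNA), in the opposite direction to the brighter probe sets in the shRNA pair.

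**Figure D1:**
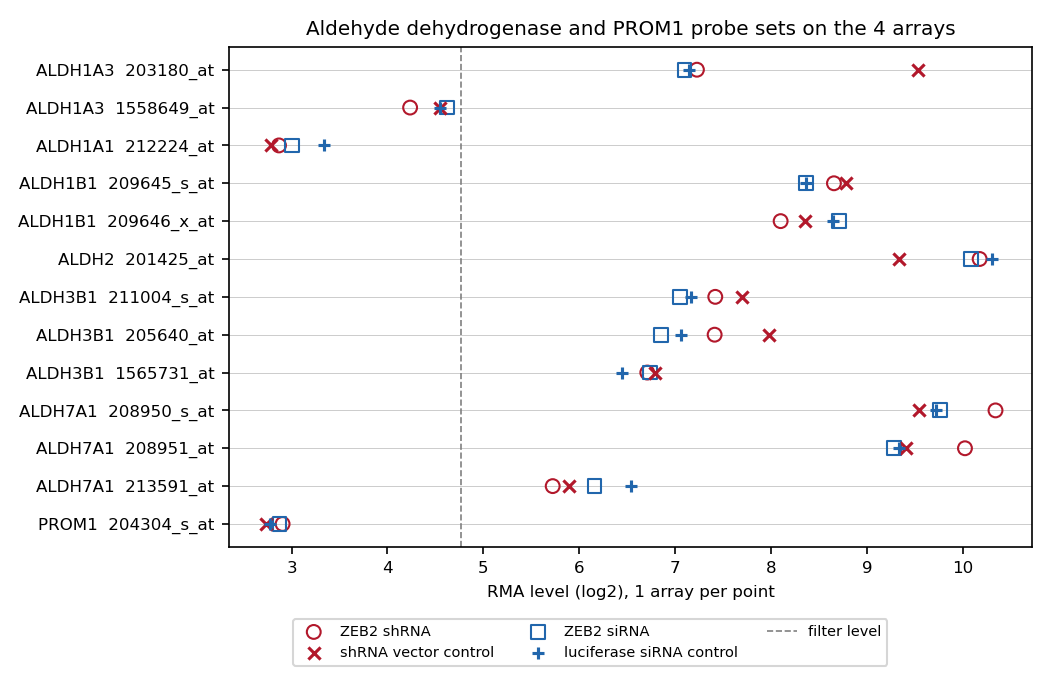
RMA level (log2, x axis) of the 13 aldehyde dehydrogenase and PROM1 probe sets on the 4 arrays, 1 symbol per array; the dashed line is the filter level of 4.77. ALDH1A3 203180_at reads 9.53 in the vector control and 7.10 to 7.23 on the other arrays, and the ALDH1A1 and PROM1 probe sets lie left of the line.

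CD44 was read by 13 probe sets, of which 12 were kept, and none of the 12 reached 1.5-fold in either knockdown pair. The 12 report transcripts of 1 gene and are not independent of each other. They fell into 7 that read above 9 on average and 5 below it, a division made after the values were seen. Among the 7, all were lower in the shRNA knockdown, by differences between -0.39 and -0.05, and 6 were higher in the siRNA knockdown, the range being -0.11 to 0.11. Probe set 212063_at read 12.19 in the shRNA knockdown against 12.57 in the vector control, and 12.22 in the siRNA knockdown against 12.14 in the luciferase control. Probe set 204489_s_at read 11.35 with ZEB2 shRNA against 11.74 with the vector, and 11.85 with ZEB2 siRNA against 11.75 with luciferase siRNA. These 2 had the lowest shRNA differences of the 7, at -0.38 and -0.39, with siRNA differences of 0.08 and 0.10. The vector control was the high array for 212063_at, whereas the shRNA knockdown was the low one for 204489_s_at. Against the luciferase control the shRNA knockdown differed by 0.05 for 212063_at and by -0.40 for 204489_s_at.

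The 5 dimmer CD44 probe sets had the other sign in the shRNA pair and mostly the same sign as the brighter ones in the siRNA pair. Their differences lay between 0.02 and 0.52 after shRNA and between -0.10 and 0.56 after siRNA. Of the 5, 3 (1565868_at, 234411_x_at and 216056_at) passed the filter through knockdown arrays alone, so their upward sign is in part set by the filter and is not counted as support. The other 2 were higher in both knockdowns. Probe set 217523_at read 7.0 in the shRNA knockdown against 6.48 in the vector control, and 7.90 in the siRNA knockdown against 7.73 in the luciferase control. For 229221_at the readings were 6.74 with ZEB2 shRNA against 6.36 with the vector, and 7.47 with ZEB2 siRNA against 7.12 with luciferase siRNA, so both differences were positive and close in size, at 0.39 and 0.35. Probe set 1565868_at read 4.91 with ZEB2 shRNA against 4.46 with the vector, and 4.97 with ZEB2 siRNA against 4.41 with luciferase siRNA. It had the highest siRNA difference of the CD44 probe sets, 0.56, but like 234411_x_at and 216056_at it read near or under the filter level on all 4 arrays, and the 3 lay between 4.01 and 4.97. The remaining probe set, 234418_x_at, never exceeded 3.52. CD44 encodes many splice variants, and which exons each probe set covers was not analysed here. Over the 12 probe sets, 5 were higher and 7 lower after shRNA, with the sign split by brightness, and 10 were higher and 2 lower after siRNA, with a median of 0.10. Filtered on the mean over the 4 arrays instead, which keeps 9, the counts were 2 higher and 7 lower after shRNA, and 8 higher and 1 lower after siRNA.

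Over the 22 kept probe sets, 1 was at least 2-fold lower in the shRNA knockdown and 0 were at least 2-fold higher, where 2.13% and 2.5% of all 29214 probe sets kept were. At 1.5-fold 1 was lower and 3 were higher, against 7.38% and 8.33% of all. Their median difference was -0.08, against -0.01 over all probe sets kept, and 8 were higher and 14 lower. In the siRNA pair 0 of the 22 were at 2-fold, where 0.0685% of all were higher and 0.175% lower. Nor was any at 1.5-fold, where the shares of all were 0.948% higher and 2.02% lower, and the differences lay between -0.38 and 0.56 with a median of 0.07, against -0.02 over all. The pairs share no array. Of the 22, 5 were higher in both knockdowns, 5 were lower in both, and the other 12, 54.5%, had opposite signs. Over all probe sets kept, 21.5% were higher in both, 27.6% lower in both and 50.4% opposite, so the share among the 22 was near that of all. The counts over the 22 include the 3 CD44 probe sets that passed the filter through knockdown arrays alone. With the filter on the mean, which leaves these out, 19 were kept. Of the 19, 5 were higher and 14 lower after shRNA, and 12 higher and 7 lower after siRNA. Both knockdowns were higher for 3 of them and lower for 5, and 11 (57.9%) had opposite signs.

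The controls were compared because both keep ZEB2, so they show how the 2 kinds of culture differ without the knockdown. Transduction, transfection, time in culture and the amount of RNA labelled differ together there and cannot be told apart. Of the 22 probe sets, 1 was at least 2-fold higher in the siRNA control, CD44 217523_at at 1.25, and 1 was at least 2-fold lower, ALDH1A3 203180_at. Over all probe sets kept, 9.11% were 2-fold higher and 10.1% lower. At 1.5-fold the counts were 5 higher and 4 lower, beside 18.9% and 19.4% of all. Of the CD44 probe sets, the 7 brighter ones were lower in the siRNA control in 6 cases, with 1557905_s_at at -0.62 and 210916_s_at at -0.65 the lowest. The median absolute difference of the 22 was 0.33 for the shRNA comparison, where all probe sets kept had 0.24. It was 0.11 for the siRNA comparison, beside 0.15 over all, and 0.42 between the controls, beside 0.43. The vector control was the array farthest from the mean of the other 3 for 11 of the 22, and for 37.0% of all probe sets kept. Set against the luciferase control, 0 of the 22 were at 2-fold in the shRNA knockdown, with a range of -0.82 to 0.76, where 8.95% of all were higher and 6.87% lower.

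**Figure D2:**
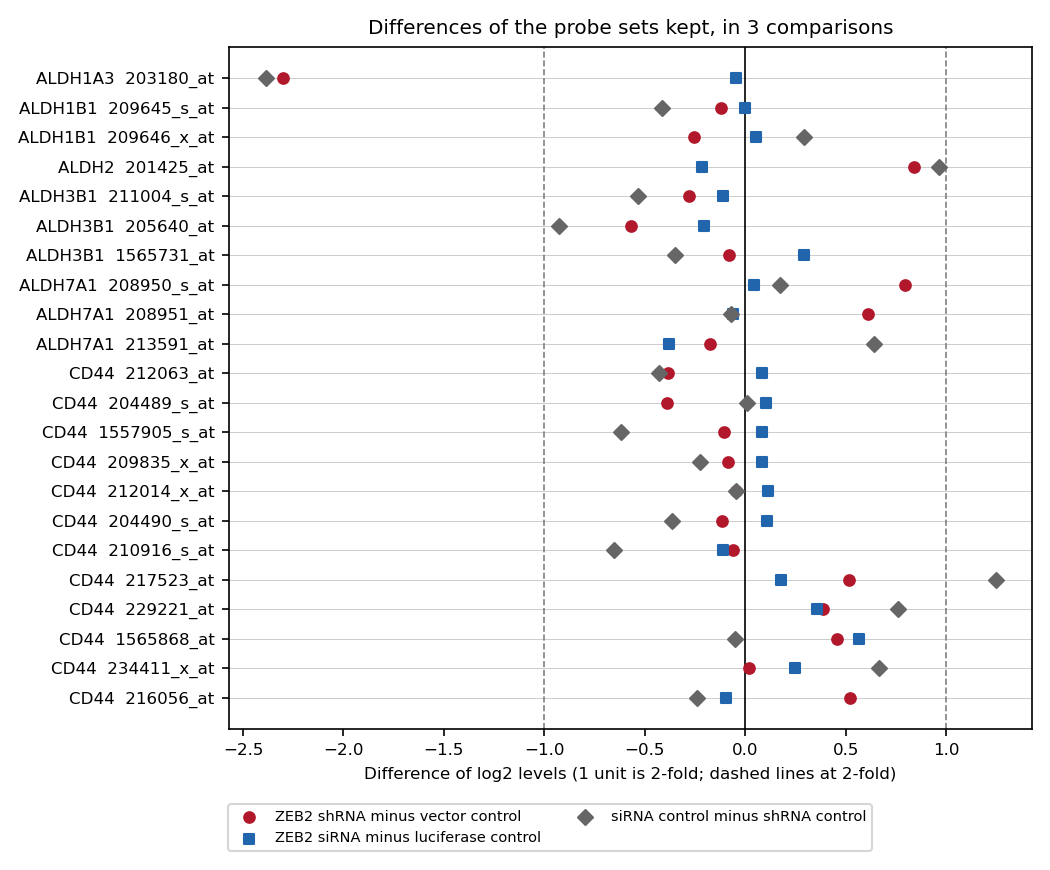
Differences of log2 levels (x axis, dashed lines at 2-fold) for the 22 probe sets kept, in the shRNA pair (circles), the siRNA pair (squares) and between the controls (diamonds). For ALDH1A3 the circle at -2.30 and the diamond at -2.39 lie side by side and the square is at -0.05; all squares lie between -0.38 and 0.56.

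A knockdown effect common to both methods was tested with limma over all 29214 probe sets kept, with the method as a block. The block takes up the gap in level between the methods. The methods stand in for replicates, and the 1 residual degree of freedom left is the disagreement between the shRNA and siRNA differences. The eBayes step draws this spread toward a trend over all probe sets, so a p here depends on that trend as well. For ALDH1B1 209645_s_at, with differences of -0.12 and 0.0001, the standard error was 0.17. No p here sets an effect against repeated cultures. After Benjamini-Hochberg adjustment limma called 0 of the 22 and 0 probe sets in all (0.0%), with adjusted p between 0.962 and 1 for the 22. At an unadjusted p under 0.05 limma gave 822 probe sets, 2.81% of all, and 1 of the 22. That one was CD44 1565868_at, which was over the filter level on the knockdown arrays only, so nothing is read from its p. For ALDH1A3 203180_at limma gave -1.17 ± 0.60, with an unadjusted p of 0.126 and an adjusted p of 0.962. ZEB2, the target, also had an adjusted p of 0.962 in limma, so a p above the threshold here does not show that a gene was unchanged.

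Among 15081 other genes, each by its brightest probe set, those whose 4 array values lay nearest to ALDH1A3 by Euclidean distance, after centring each gene on its mean, were SLITRK5 (distance 0.23), SLIT2 (0.23), LAMA2 (0.29), TLR5 (0.35) and PKIA (0.37). SLIT2, a secreted guidance ligand, read 8.20 in the shRNA knockdown against 10.42 in the vector control, and 7.81 in the siRNA knockdown against 7.84 in the luciferase control. LAMA2, which encodes a laminin chain, read 5.62 with ZEB2 shRNA against 8.15 with the vector, and 5.85 with ZEB2 siRNA against 5.88 with luciferase siRNA. The vector control was the high array for all 5, which follows from picking them for nearness to ALDH1A3. SLITRK5 passed the filter through the vector control alone, at 6.37. It read 4.36 with ZEB2 shRNA, 4.20 with ZEB2 siRNA and 4.09 with luciferase siRNA. This likeness describes 4 arrays only. No other gene of the 8 spanned 1 log2 unit at its brightest probe set.

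The remaining aldehyde dehydrogenase family was followed by the brightest probe set of each gene. Of 13 further ALDH genes 10 were kept, with 4 higher and 6 lower after shRNA, the same counts after siRNA, and 0 at 2-fold in either pair, where 2.39% of all 15082 genes kept were 2-fold higher and 2.08% lower in the shRNA pair. ALDH6A1, which acts in valine breakdown, read 9.70 in the shRNA knockdown against 8.71 in the vector control and 8.96 in the siRNA knockdown against 9.03 in the luciferase control. ALDH3A2, the fatty aldehyde dehydrogenase, read 8.16 with ZEB2 shRNA against 9.08 with the vector, and 8.33 with ZEB2 siRNA against 8.82 with luciferase siRNA, so it was lower in both pairs, at -0.92 and -0.49. Among these 10 it was the 1 gene with an unadjusted p under 0.05 in limma, and 0 passed adjustment. Other enzymes that clear aldehydes and ketones included the aldo-keto reductases AKR1C3, at 9.97 in the shRNA knockdown against 7.63 in the vector control and 11.60 in the siRNA knockdown against 11.17 in the luciferase control, and AKR1C2, with differences of 1.48 and 0.57. Between the controls both were over 2-fold higher in the siRNA control, by 3.53 and 3.07, where 10.8% of all genes were higher and 4.99% lower. These AKR1C2 values are of its brightest probe set. Its 3 probe sets lay between -0.07 and 1.48 after shRNA, with a mean of 0.91, and between -0.20 and 3.07 between the controls. AKR1C genes are near-identical copies, and a probe set can read more than 1 of them. Of the 9 enzymes kept in that list, 2 were past 2-fold upward after shRNA against ZEB2 but 0 after siRNA, where 0.0464% of all genes were higher and 0.126% lower.

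Genes that carry retinoids or respond to retinoic acid showed no common direction in the shRNA pair. In the transport and metabolism list, with 8 genes kept, 4 were higher and 4 lower, while siRNA gave 2 higher and 6 lower. FABP5, a fatty acid and retinoic acid carrier, read 9.54 in the shRNA knockdown against 10.79 in the vector control. After siRNA against ZEB2 it read 8.92, against 9.15 in the luciferase control. RDH11, a retinal reductase, had differences of 0.89 and -0.15 by its brightest probe set. Its 4 probe sets differed in sign, between -0.21 and 1.07 after shRNA and between -0.33 and 0.16 after siRNA. In the receptor and target list, with 9 kept, 6 were higher and 3 lower after shRNA, while siRNA gave 4 higher and 5 lower. TGM2, a transglutaminase induced by retinoic acid, was lower in both, at -1.06 and -0.36, and was the 1 gene of its list with an unadjusted p under 0.05 in limma. Its readings were 9.86 in the shRNA knockdown against 10.92 in the vector control and 9.07 in the siRNA knockdown against 9.43 in the luciferase control. The mean of the 4 TGM2 probe sets gave 0.15 in the siRNA pair, the other sign. RARRES2, which encodes chemerin, had differences of 0.94 and 0.15.

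Partners of CD44 included HAS2, a synthase of its ligand hyaluronan, which read 8.02 in the shRNA knockdown against 5.85 in the vector control, and 6.68 in the siRNA knockdown against 7.39 in the luciferase control. HAS2 thus differed by 2.17 and -0.71, with opposite signs in the pairs. HAS3, another synthase, had differences of -1.12 and -0.21. CEMIP, which takes part in hyaluronan breakdown, read 8.79 with ZEB2 shRNA against 10.05 with the vector, and 11.13 with ZEB2 siRNA against 10.22 with luciferase siRNA. Of the 16 genes kept in that list the shRNA knockdown had 6 higher and 10 lower, and the siRNA knockdown 8 each way. Ezrin, radixin and moesin, which link CD44 to actin, had shRNA differences of -0.68, -0.21 and -0.12. Their siRNA differences were 0.36, -0.02 and 0.06. By these brightest probe sets ezrin and moesin had opposite signs in the pairs, but not by all of their probe sets. The 5 of ezrin lay between -0.57 and 0.36 after siRNA, with a mean of -0.0016. The 2 of moesin lay between -0.12 and 0.05 after shRNA.

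Other breast stem-like markers, 17 kept, numbered 7 higher and 10 lower after shRNA, and 9 higher and 8 lower after siRNA. CD24, which is low on the surface of CD44-high stem-like cells, read 8.44 in the shRNA knockdown against 4.78 in the vector control, and 11.80 in the siRNA knockdown against 11.24 in the luciferase control. CD24 was therefore highest in both siRNA cultures and lowest in the vector control, and the controls differed by 6.46. EPCAM, an epithelial adhesion molecule, read 8.40 with ZEB2 shRNA against 7.01 with the vector, and 9.07 with ZEB2 siRNA against 8.47 with luciferase siRNA. NES, which encodes the intermediate filament nestin, read 7.09 with ZEB2 shRNA against 8.23 with the vector, and 6.29 with ZEB2 siRNA against 6.27 with luciferase siRNA. At 2-fold this list had 2 genes higher and 1 lower after shRNA, beside 2.39% and 2.08% of all genes kept, whereas siRNA gave 0, beside 0.0464% and 0.126%. After adjustment limma called 0 genes in each of these lists, and at an unadjusted p under 0.05 it gave 1 aldehyde-clearing enzyme (AKR1C2), 1 stem-like marker (EPCAM), 0 retinoid transport genes and 0 partners of CD44, beside 384 of all 15082 genes kept (2.55%).

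**Figure D3:**
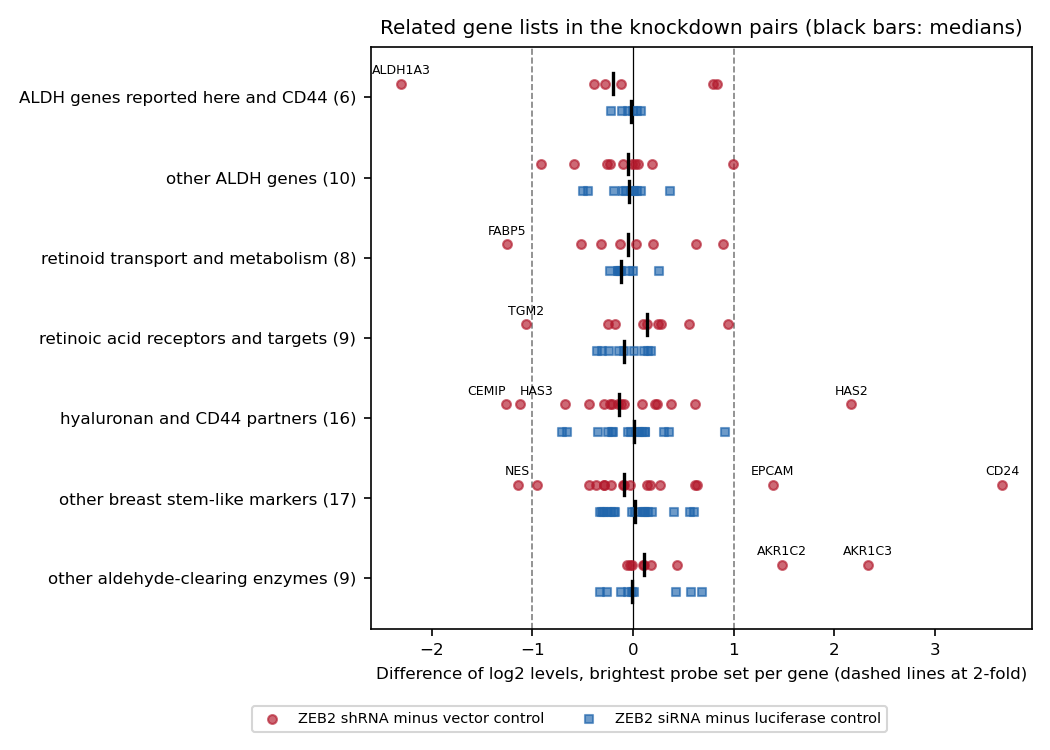
Differences of log2 levels (x axis, dashed lines at 2-fold) of the genes kept in each list, by brightest probe set, in the shRNA pair (circles) and the siRNA pair (squares), with the number of genes in brackets and black bars at the medians. Named points are genes at 2-fold in the shRNA pair, from ALDH1A3 at -2.30 to CD24 at 3.66; all squares lie within 2-fold.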

How the data were processed

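The authors deposited 1 log2 value for each probe set and array. The submitters' processing notes name RMA and affy; no version is given in the sources used here. RMA removes background, equalises the arrays' distributions and combines the probes of a set. It hides changes in total RNA per cell and compresses differences of dim probe sets. Array medians were 5.34 to 5.37. Groups came from the sample titles, with 1 array each.

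Of 54675 probe sets, 41097 had 1 symbol in the platform annotation, 1801 several and 11777 none in the table used. Symbols were checked by gene identifier against RefSeq (GRCh38.p14, 41043 found, 0 changed). The filter kept 29214. Differences were counted at 2-fold with no test, and limma 3.58.1 (R 4.3.3, lmFit, eBayes with trend, 2-sided, Benjamini-Hochberg at 0.05) tested the common effect. The limma step was also run on simulated arrays with independent noise for each array, and no result given here rests on that run. Alternatives were other scalings, filters, folds, probe set choices and limma settings.

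The genes and lists were chosen with earlier results of these data known. Named beside them were, from each list, genes at 2-fold in either knockdown pair or, to make up 2, those with the largest difference, and the 5 genes nearest to any of the 8 that spanned 1 log2 unit. Ezrin, radixin and moesin were added after their values were seen. Figures used matplotlib 3.10.9.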

Additional observations from a re-analysis of the deposited data

Results flagged for a closer look

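Opposite signs in the knockdown pairs were seen for 12 of the 22 probe sets (54.5%), near the 50.4% of all probe sets kept. With the filter on the mean, 11 of 19 (57.9%) had opposite signs. With 1 array per group, the difference between pairs was not tested. Of the 12, 2 reached 1.5-fold in either pair, beside 2555 of the 14721 probe sets with opposite signs among all kept. ALDH2 201425_at had an shRNA difference of 0.84 and an siRNA difference of -0.22. ALDH7A1 208951_at gave 0.61 and -0.06. For ALDH1B1 the differences were -0.12 and 0.0001 (209645_s_at) and -0.26 and 0.0549 (209646_x_at), and for ALDH3B1 1565731_at they were -0.0822 and 0.29. Among CD44 probe sets the shRNA and siRNA differences were -0.38 and 0.0808 for 212063_at, and -0.39 and 0.10 for 204489_s_at. They were -0.11 and 0.0811 for 1557905_s_at, -0.0846 and 0.081 for 209835_x_at, and -0.0472 and 0.11 for 212014_x_at. The last were -0.12 and 0.11 for 204490_s_at, and 0.52 and -0.10 for 216056_at.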

How the results depend on the processing

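With 1 array per group, leaving out a replicate was not possible, and leaving out a pair leaves limma no residual degree of freedom. The 2-fold counts of 1 (shRNA pair), 0 (siRNA pair) and 2 (between the controls) were the same under median centring, quantile normalization, cyclic loess, no filter, both other filters and without probe sets ending in _x_at or _s_at. At 1.5-fold the counts were 4 in the shRNA pair and 9 between the controls, beside 15.7% and 38.4% of all probe sets kept. At 3-fold the count between the controls was 1, beside 7.76%. By gene instead of probe set, 1 gene was left between the controls. The share of all genes kept was 15.8% with the brightest probe set and 13.5% with the mean of all. With the siRNA control in place of the shRNA control, chosen after the data were seen, the shRNA count was 0 and ALDH1A3 turned to 0.0843, while the probe sets at 2-fold among all kept numbered 4621 in place of 1351. limma called 0 probe sets under each of the 12 alternatives, with smallest adjusted p from 0.96 to 1, and without the method block 41 in place of 822 had an unadjusted p under 0.05. Scaling moved no difference of the 8 genes by more than the spread of differences over all probe sets kept. ALDH1A1, PROM1 and the dim CD44 probe sets are limited by signal over background.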

Other observations

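The ALDH1A3 probe set 1558649_at had the same value, 4.55, in the siRNA control and the shRNA control to every deposited digit. Such identity between these 2 arrays held for 279 of the 54675 probe sets, and between the siRNA knockdown and its control for 415. Among the further ALDH genes, ALDH18A1, which acts in proline synthesis and was picked out after its values were seen, read 10.07 in the shRNA knockdown against 10.32 in the vector control, and 8.69 in the siRNA knockdown against 9.14 in the luciferase control. It was the 1 gene of the 10 at 2-fold between the controls, at -1.18, where 4.99% of all genes kept were lower by that much. RARB, a retinoic acid receptor gene also noticed afterwards, read 7.55 in the siRNA control against 5.04 in the shRNA control by its brightest probe set. CYP26B1, which breaks retinoic acid down, read 7.72 in the siRNA control against 5.92 in the shRNA control, also by its brightest. Other probe sets did not all go this way. The 5 of RARB differed between the controls by -0.26 to 2.51, with a mean of 0.68. The 2 of CYP26B1 differed by -0.18 and 1.80, with a mean of 0.81. By the brightest probe set each knockdown lay within 2-fold of its own control for both genes, with RARB at -0.24 and -0.14 and CYP26B1 at 0.62 and -0.04. Between the controls, 3 of the 8 retinoid transport and metabolism genes kept were 2-fold higher in the siRNA control. So were 3 of the 9 receptors and targets. In each list 1 gene was 2-fold lower, FABP5 at -1.64 and TGM2 at -1.49. Of all genes kept, 10.8% were 2-fold higher and 4.99% lower.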
